A study of Mus musculus with 2 samples.

Results

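The genes described here are 38 markers of the cell cycle, read as raw counts of unique molecular identifiers (UMIs) in 2 single-cell libraries of skin leukocytes and taken from the 32285 genes of the files by name. They comprise 21 genes that are highest in G2 and mitosis (the G2/M list), 15 that serve DNA replication and are highest around S phase (the S list), and Hmgb2 and Stmn1, which are high in both phases and belong to neither list. All 38 were found in both libraries, with 243182 UMIs over the isotype control barcodes and 171880 over the anti-Gr-1 barcodes.

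The libraries hold live CD45+ cells that were sorted from collagenase-digested skin of wild-type C57BL/6 mice at day 15 of age. From day 4 to day 14 the mice had been given, every other day, either an isotype control antibody or anti-Gr-1, which binds surface proteins of neutrophils and of many monocytes. The series' design names monocyte depletion as the purpose of the antibody. Each library is 1 pool of 4 to 7 mice, so there is 1 sample per treatment, no difference between treatments was tested, and treatment cannot be told apart from pool or library.

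A cell that commits to division passes from G1, where D-type cyclins and their kinases inactivate the pocket proteins of the Rb family, into S phase, where E2F factors switch on the replication machinery. Genes of G2 and mitosis follow later, many of them under B-MYB, FOXM1 and the DREAM complex, and their messages are cleared after the cell has divided. Skin of the newborn is seeded with waves of embryonic and early postnatal leukocytes, and several of these, among them dendritic epidermal T cells, dermal gamma-delta T cells and Langerhans cells, are known to expand by division in the tissue around birth.

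The isotype control library held 21311 barcodes and 125253392 UMIs and the anti-Gr-1 library 9110 barcodes and 85142470 UMIs. After filters on barcodes and removal of 3055 and 518 likely doublets, cells with at least 2000 UMIs were analysed: 12852 in the isotype control, with a median of 6131 UMIs, and 7198 after anti-Gr-1, with a median of 8094. The shallower cells left out made up 22% and 4.4% of the singlets. Marker genes that hold no member of the list placed 10319 (80.3%) and 6178 (85.8%) of the analysed cells in 21 cell types, each called by its markers with the ending "-like". The remainder carried markers of more than 1 lineage or more than 1 T cell type (1032 and 152 cells), of tissue outside the blood lineage (149 and 44) or too few markers (1352 and 824). Of the barcodes, 61 occurred in both libraries. Neutrophil-like cells numbered 85 and 11, classical monocyte-like cells 220 and 18, and non-classical monocyte-like cells 111 and 15.

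Because counts of cycle genes rise with depth, every cell was thinned to 2000 UMIs before it was called. A cell counted as dividing when at least 3 of those 2000 UMIs came from the G2/M list. Levels are given as CPM, a gene's UMIs divided by all UMIs of the summed cells and multiplied by 1e+06. These are 3′ end counts, which do not scale with transcript length. The ranges in parentheses are 95% intervals, by the Clopper-Pearson method for shares and by an exact conditional method for ratios. They hold counting error and nothing of the spread between mice, which 1 pool per treatment does not show. Intervals for ratios of UMIs or of levels also hold nothing of the spread between cells.

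The control regions of the members that gave most UMIs are shown first, because genes of each phase are known to share promoter elements. Of the 38 members, 31 matched the RefSeq promoter table (build GRCm38.p6). The windows searched are the 250 bases before the start site of that table. For each list the 2 matched members with most UMIs over both libraries are printed, 5′ to 3′ on the strand of the gene. Mki67 is printed over the whole window. The windows of Cenpa, Pcna and Pclaf run 109, 134 and 86 bases into the gene as GENCODE M21 places its start, so only the 30 bases around their matches are shown. By that annotation these stretches, and the matches in them, lie inside the gene, but for the first base printed for Cenpa. Capitals mark the letters CCAAT, the box bound by NF-Y, and TTTGAA, the cell cycle homology region known from G2/M genes, on either strand.
Mki67 (G2/M; chr7:135716380-135716629, minus strand): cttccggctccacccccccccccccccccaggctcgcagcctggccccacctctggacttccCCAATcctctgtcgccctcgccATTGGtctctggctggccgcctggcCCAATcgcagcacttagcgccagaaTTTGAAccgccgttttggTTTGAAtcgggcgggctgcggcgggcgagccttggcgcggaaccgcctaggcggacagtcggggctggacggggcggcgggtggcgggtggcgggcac
Cenpa (G2/M; chr5:30666776-30666805, plus strand): cATTGGcttcagacctttattctcATTGGt
Pcna (S; chr2:132253250-132253279, minus strand): accacgggtacgATTGGtccttgaggagag
Pclaf (S; chr9:65890257-65890286, plus strand): ATTGGtccagagtgaaggcgcggaaCCAAT

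The Mki67 window held 3 CCAAT boxes and 2 copies of TTTGAA, and the nearest TTTGAA began 98 bases before the start site. The Cenpa window held 2 CCAAT boxes, on the opposite strand, and no TTTGAA. Pcna had 1 CCAAT box and Pclaf 2. Across the members, CCAAT on either strand was found in 16 of 18 G2/M promoters (88.9%) and in 12 of 14 S promoters (85.7%; 12 genes, some with more than 1 start), against 33.8% of 32851 promoters of the same length. TTTGAA was found in 7 of 18 G2/M promoters (38.9%), 1 of 14 S promoters (7.14%) and 16% of all promoters. Any of the E2F letters TTTCCCGC, TTTGGCGC, TTTCGCGC or TTTGCCGC was found in 1 of 18 G2/M promoters (5.56%), 4 of 14 S promoters (28.6%) and 1.86% of all promoters, and in none of the 4 windows. No 2 of these motifs share letters at a position in these 4 windows. A match is a description of letters and was not tested as a binding site.

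The dividing call was read against genes that it did not use. The 28 other mitotic genes on a list kept apart from the members, such as Hmmr and Nuf2, summed to 338 CPM in isotype control cells with 0 G2/M UMIs, 399 with 1 and 548 with 2. They summed to 737 CPM in cells with 3 G2/M UMIs, 1146 with 4, 2422 with 5 to 9 and 5892 with 10 or more. In the anti-Gr-1 library the same steps were 292, 346, 477, 804, 974, 2617 and 5618 CPM. The level therefore went up at every step in both libraries, and cells just inside the threshold were far closer to those just outside it than to cells with 10 or more UMIs. The cells near the threshold are many: 549 gated isotype control cells had 2 G2/M UMIs, 202 had 3, 89 had 4 and 255 had 10 or more. After anti-Gr-1 these numbers were 276, 97, 44 and 177. The dividing class is thus a range of a per-cell count.

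**Figure D1:**
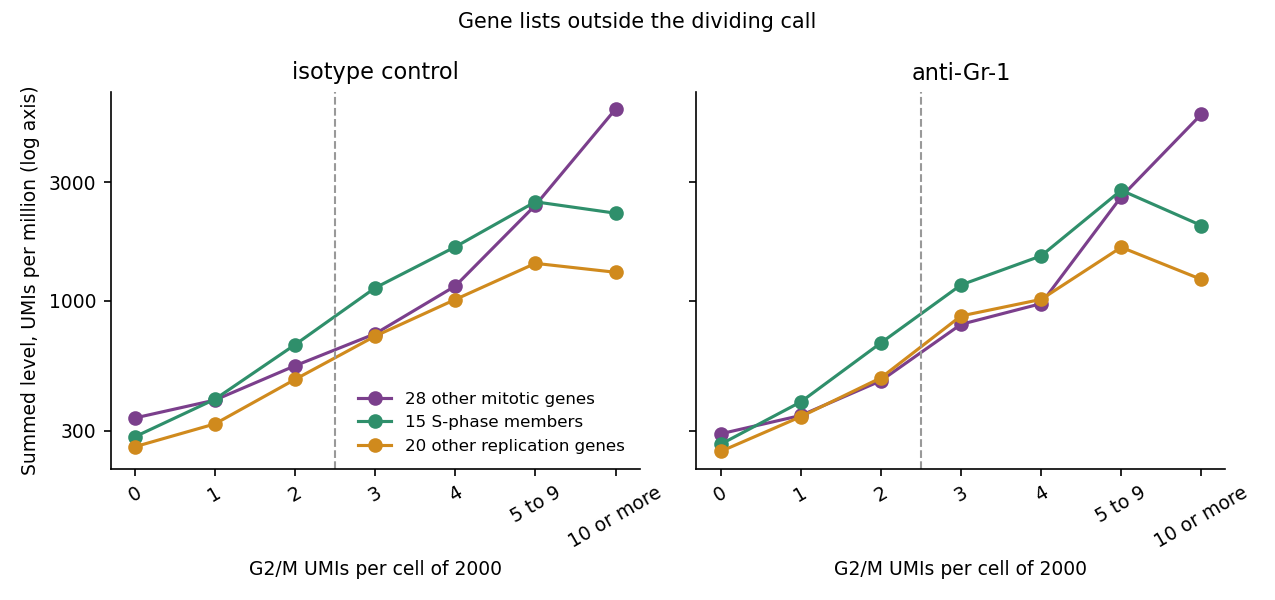
Summed level (CPM, log axis) of the 28 other mitotic genes, the 15 S members and the 20 other replication genes in gated cells grouped by their G2/M UMIs out of 2000, 1 panel per library. The dashed line is the threshold for a dividing cell. Mitotic genes climb to 5892 and 5618 CPM in the last group, while the S members are highest at 5 to 9 G2/M UMIs, with 2499 and 2781 CPM.

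The S list ran a different course from the mitotic genes. Its summed level was 284 CPM in isotype control cells with 0 G2/M UMIs, 1127 with 3, 2499 with 5 to 9 and 2249 with 10 or more. After anti-Gr-1 it was 265, 1158, 2781 and 2007 CPM. The 20 other replication genes also had their highest level at 5 to 9 G2/M UMIs, at 1414 and 1641 CPM, against 1302 and 1219 at 10 or more. Cells with the most mitotic message were thus not those with the most replication message, in either library. Stmn1, which encodes the microtubule regulator stathmin, and Hmgb2, a chromatin protein, were highest in the last group (Stmn1 1521 and 1569 CPM, Hmgb2 4777 and 5108 CPM).

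Dividing cells made up 6.98% (6.49 to 7.49) of the gated isotype control cells, 720 of 10319, and 6.75% (6.14 to 7.4) of the gated anti-Gr-1 cells, 417 of 6178. The ratio of the shares was 0.967 (0.855 to 1.09). With both libraries weighted to the cell composition of the isotype control over the 11 cell types that had at least 100 cells in each, the shares were 7.26% and 6.86%. With at least 5 G2/M UMIs in place of 3 they were 4.16% and 4.47%. Without thinning, 3 or more G2/M UMIs were found in 22.5% and 26.2% of the same cells, a ratio of 1.17 (1.09 to 1.24), and the median depth of the analysed cells was 6131 and 8094 UMIs. Dividing cells were also deeper than the others, with medians of 9054 against 6186 UMIs in the isotype control and 14316 against 8014 after anti-Gr-1. Cells with both Xist and Y-linked UMIs, as a merged pair of a female and a male cell would have, were 7.78% of dividing and 6.29% of other isotype control cells, and 3.6% and 2.46% after anti-Gr-1. The part of depth and of such cells in the dividing shares was not tested.

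Among the large lymphoid types of the isotype control the dividing share was highest in regulatory T-like and group 2 innate lymphoid cell (ILC2)-like cells, and after anti-Gr-1 in ILC2-like cells. ILC2-like cells, tissue lymphocytes marked by Gata3 and Il1rl1 that make type 2 cytokines, had 10.7% (7.69 to 14.4) dividing cells in the isotype control, 38 of 355, and 14% (9.87 to 19.2) after anti-Gr-1, 33 of 235. Regulatory T-like cells, marked by Foxp3 and Ctla4, had 10.9% (8.3 to 14), 54 of 495, and 8.49% (5.46 to 12.5), 23 of 271. Many of these cells lay well inside the class: the median dividing regulatory T-like cell had 13 and 12 G2/M UMIs and the median ILC2-like one 7 and 14. Conventional CD4 T-like cells were few, with 9 of 118 dividing (7.63%, 3.55 to 14) and 17 of 140 (12.1%, 7.24 to 18.7). The intervals of the ratio between libraries held 1 in each of these types, at 1.31 (0.797 to 2.15) for ILC2-like, 0.778 (0.456 to 1.29) for regulatory T-like and 1.59 (0.671 to 4.05) for conventional CD4 T-like cells.

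The most numerous lymphoid cells had middling shares. Dendritic epidermal T-like cells, which resemble the gamma-delta T cells of mouse epidermis, had 6.21% (5.25 to 7.3) dividing cells in the isotype control, 138 of 2221, and 6.16% (4.96 to 7.55) after anti-Gr-1, 86 of 1396. Gamma-delta type 17-like cells, the dermal gamma-delta T cells that make IL-17, had 7.54% (6 to 9.32), 78 of 1035, and 6.52% (4.88 to 8.5), 50 of 767. Lymphoid cells marked by Hlf and Bmp2 had 6.94% (5.36 to 8.81), 62 of 893, and 6.17% (4.45 to 8.31), 40 of 648. The neighbours among these 3 types did not differ beyond their intervals in either library.

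The gamma-delta type 17-like cells stood on the edge of the call. Their median dividing cell had 4 G2/M UMIs in both libraries, as did that of macrophage-like and mast-like cells in the isotype control only. Of the dividing gamma-delta type 17-like cells, 35 of the 78 and 19 of the 50 had exactly 3. When Cenpa was left out of the list, their dividing share was 2.32% (1.49 to 3.43) and 2.87% (1.81 to 4.31), and that of dendritic epidermal T-like cells 2.7% (2.07 to 3.46) and 3.44% (2.55 to 4.53). The shares of conventional CD4 T-like cells (7.63% and 10%), ILC2-like cells (9.86% and 12.8%) and type 1 dendritic-like cells (6.42% and 6.67%) were much nearer to those with Cenpa. Leaving out Cenpa was an alternative added after its values were seen. It places the gamma-delta type 17-like share below that of the phagocytes with Retnla, Lpl and Fn1 (4.77% and 3.7%), whereas the full list places it above. The intervals of these 2 types overlapped in both libraries, with and without Cenpa.

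**Figure D2:**
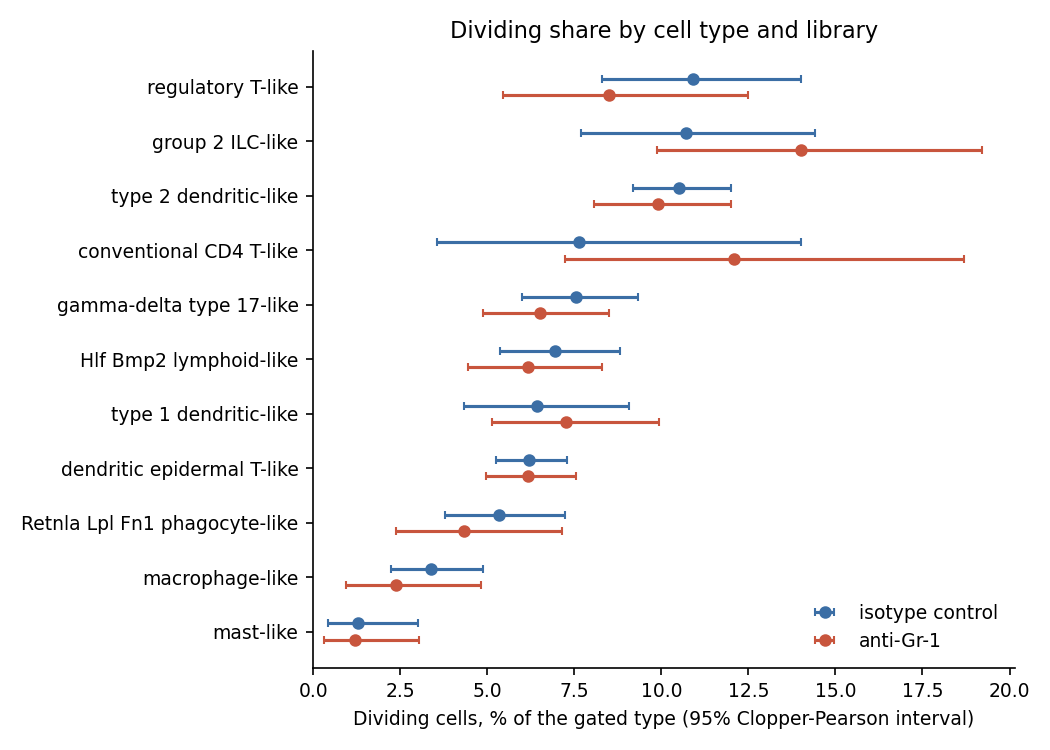
Share of dividing cells (%, x axis, starting at 0) in the 11 cell types with at least 100 analysed cells in each library, with 95% Clopper-Pearson intervals as bars. Points run from 1.3% and 1.2% in mast-like cells to 10.9% in regulatory T-like cells of the isotype control and 14% in ILC2-like cells after anti-Gr-1. The intervals of the 2 libraries overlap in every type shown.

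With at least 5 G2/M UMIs in place of 3, ILC2-like cells had 6.76% and 10.6% dividing cells and regulatory T-like cells 8.28% and 5.9%. Type 2 dendritic-like cells had 6.79% and 7.35%, type 1 dendritic-like cells 4.42% and 5.45%, and conventional CD4 T-like cells 6.78% and 9.29%. Gamma-delta type 17-like cells had 2.51% and 3.13%, dendritic epidermal T-like cells 3.29% and 3.72%, macrophage-like cells 1.63% and 1.69%, and mast-like cells 0.518% and 0.898%. At this threshold both gamma-delta types lay below type 1 dendritic-like cells in each library.

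Among myeloid cells the type 2 dendritic-like cells stood highest. These cells, marked by Cd209a, Mgl2 and Clec10a, had 10.5% (9.19 to 12) dividing cells in the isotype control, 206 of 1959, and 9.9% (8.07 to 12) after anti-Gr-1, 93 of 939. They were 28.6% and 22.3% of all gated dividing cells, and 52 of the 206 and 18 of the 93 had exactly 3 G2/M UMIs. Type 1 dendritic-like cells, marked by Xcr1 and Clec9a, had 6.42% (4.34 to 9.08), 29 of 452, and 7.27% (5.15 to 9.93), 36 of 495. Mature dendritic-like cells, which carry the migration receptor gene Ccr7, had 2 of 183 (1.09%, 0.133 to 3.89) and 2 of 95 (2.11%). The interval of type 2 dendritic-like cells lay above that of type 1 dendritic-like cells in the isotype control but overlapped it after anti-Gr-1.

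Macrophage-like cells had 3.38% (2.24 to 4.88) dividing cells in the isotype control, 27 of 798, and 2.37% (0.959 to 4.83) after anti-Gr-1, 7 of 295. The phagocytes with Retnla, Lpl and Fn1 had 5.33% (3.8 to 7.24), 38 of 713, and 4.32% (2.38 to 7.14), 14 of 324. Mast-like cells had the lowest share of the 11 large types, at 1.3% (0.422 to 3), 5 of 386, and 1.2% (0.327 to 3.04), 4 of 334. Langerhans-like cells, the macrophage-related cells of the epidermis, had 3 of 128 dividing cells in the isotype control (2.34%) and 0 of 66 after anti-Gr-1, which allows a share of up to 4.55%. Those 3 cells had 0 CPM of Ptprc, which encodes CD45, against 771 CPM in the other Langerhans-like cells. Their median depth was 2237 UMIs, against 8694 in the others, so they are not cells of a checked type.

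Monocyte-like and neutrophil-like cells gave little to compare. Classical monocyte-like cells had 7 of 220 dividing cells in the isotype control (3.18%, 1.29 to 6.45) and non-classical monocyte-like cells 4 of 111 (3.6%, 0.99 to 8.97). Only 18 and 15 such cells were found after anti-Gr-1, with 0 dividing in each, which allows up to 16.7% and 20%. They were 0.291% and 0.243% of gated cells there, against 2.13% and 1.08% in the isotype control. Of the neutrophil-like cells, 1 of 85 was called in the isotype control and 0 of 11 after anti-Gr-1. Neutrophils in tissue no longer divide, and the call gave 1.18% (0.0298 to 6.38) in this type, on 1 cell. That value does not carry over to other types. Outside the dividing class of the isotype control, Cenpa had 53.7 CPM in neutrophil-like and 239 CPM in gamma-delta type 17-like cells. The median depth of the 85 neutrophil-like cells was 2732 UMIs, the lowest of the 21 types in that library.

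Small types had high but loosely measured shares. Their gates also set minimum raw marker counts, which deeper cells reach more readily. In the isotype control, dividing NK and group 1 ILC-like cells had a median of 10288 UMIs, against 6071 in the others. For B-like cells it was 2575 against 3782. The part of depth in these shares was not tested. NK and group 1 ILC-like cells had 9 of 60 (15%, 7.1 to 26.6) and 7 of 42 (16.7%, 6.97 to 31.4), and CD8 T-like cells 3 of 33 (9.09%) and 5 of 30 (16.7%). B-like cells had 6 of 35 (17.1%, 6.56 to 33.6) and 0 of 20, which allows up to 15%. In the 9 dividing NK and group 1 ILC-like cells of the isotype control the marker list most raised over the average of gated cells was that of regulatory T cells, not their own, so that share is of cells that met the gate and not of a checked type. In the 7 classical and 4 non-classical dividing monocyte-like cells the melanocyte and Schwann cell list led, and in other non-classical monocyte-like cells the eosinophil list (isotype control) or the endothelial list (anti-Gr-1). In the 11 large types the own marker list remained high in dividing cells, for example 4191 CPM against 6637 in other regulatory T-like cells and 4456 against 5464 in other type 2 dendritic-like cells of the isotype control. In dendritic epidermal T-like cells (11680 against 14057 CPM of their own list) the NK list led among the other cells and the general T list among the dividing cells, and in conventional CD4 T-like cells the CD4 and CD8 lists, which share Trac and Trbc2, led in turn.

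Cells set aside from the gates also divided. Unassigned cells had dividing shares of 11.9% (10.2 to 13.8) and 10.2% (8.21 to 12.5). Cells with markers of several lineages or T cell types had 14.2% (12.2 to 16.5) and 5.92% (2.74 to 10.9). Over all analysed cells, gated or not, the shares were 8.08% and 7.11%. Among the barcodes removed as likely doublets with at least 2000 UMIs, 5.75% and 8.7% would have been called dividing.

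The balance of S against G2/M genes was next compared within the dividing cells. Over all gated dividing cells, the S list gave 0.387 UMIs (0.38 to 0.394) per G2/M UMI in the isotype control and 0.364 (0.357 to 0.372) after anti-Gr-1. At least 3 S UMIs were found in 305 of the 720 dividing cells (42.4%, 38.7 to 46.1) and in 175 of the 417 (42%, 37.2 to 46.9). More S than G2/M UMIs were found in 15% and 15.1%. The shares of the 2 libraries lay within each other's intervals. The UMI ratios differed by more than counting error, which does not include the spread between cells. They moved from 0.298 to 0.488 (anti-Gr-1) and from 0.328 to 0.502 (isotype control) across the thinning depths tried.

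Among the 11 large types, dividing conventional CD4 T-like cells had the largest part with both kinds of message in both libraries, with regulatory T-like cells next in the isotype control. At least 3 S UMIs were found in 35 of 54 dividing regulatory T-like cells of the isotype control (64.8%, 50.6 to 77.3) and in 12 of 23 after anti-Gr-1 (52.2%). In conventional CD4 T-like cells it was 6 of 9 and 14 of 17 (82.4%, 56.6 to 96.2). In gamma-delta type 17-like cells it was 14 of 78 (17.9%, 10.2 to 28.3) and 11 of 50 (22%), and in dendritic epidermal T-like cells 40 of 138 (29%, 21.6 to 37.3) and 32 of 86 (37.2%). Both gamma-delta types thus lay below both CD4 types in each library. Type 2 dendritic-like cells (49% and 44.1%), ILC2-like cells (47.4% and 51.5%) and type 1 dendritic-like cells (51.7% and 44.4%) lay between them. All these parts are of cells called with Cenpa in the list. Without Cenpa the dividing shares of both gamma-delta types were much lower, as given above, and their part with S UMIs is not given. By the ratio of UMIs, Hlf Bmp2 lymphoid-like (0.268 and 0.261) and ILC2-like cells (0.287 and 0.281) were low in both libraries. Phagocytes with Retnla, Lpl and Fn1 were high (0.464 and 0.78). Macrophage-like cells changed place between the libraries (0.644 and 0.21), on 27 and 7 dividing cells.

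A further set of cells had at least 3 S UMIs and fewer than 3 G2/M UMIs: 478 gated isotype control cells (4.63%, 4.23 to 5.06) and 244 anti-Gr-1 cells (3.95%, 3.48 to 4.47). The call did not use the 20 other replication genes, and these summed to 961 CPM in such cells of the isotype control, 1182 in dividing cells and 245 in the rest. After anti-Gr-1 the values were 1120, 1242 and 231 CPM. The 28 other mitotic genes, in contrast, summed to 648, 3504 and 346 CPM in the isotype control and to 659, 3648 and 292 after anti-Gr-1. Mcm2, a subunit of the replicative helicase, was higher in these S-only cells (108 and 89 CPM) than in dividing cells (59.1 and 47.2), but it was also among the genes that chose them. Pclaf, a partner of the sliding clamp, was lower in them (95 and 162 CPM) than in dividing cells (503 and 516).

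Among the 11 large types S-only cells were most frequent in ILC2-like cells (7.32% and 6.38%). Dendritic epidermal T-like cells had 6.75% and 5.73%, close to the 8 of 118 conventional CD4 T-like cells (6.78%) of the isotype control. S-only cells were least frequent in gamma-delta type 17-like cells (2.32% and 1.69%) among the 11 large types of the isotype control. After anti-Gr-1 conventional CD4 T-like cells, with 2 of 140, were lower still. In the dendritic epidermal T-like cells 1 gene of the S list stood apart, and their S-only share is given with that gene in the list. Rrm1, the large subunit of ribonucleotide reductase on chromosome 7, had 127 and 124 CPM in all dendritic epidermal T-like cells, and from 14.3 to 71.6 CPM in the other 10 large types over both libraries. Among their cells not called dividing it had 118 and 119 CPM, with a UMI among 2000 in 16% and 15.3% of cells, against 5.33% and 3.49% of such gamma-delta type 17-like cells. Its partner subunit Rrm2, on chromosome 12, did not share this, with 18.3 and 17.7 CPM in dendritic epidermal T-like cells against 51.8 and 37.5 CPM in regulatory T-like cells.

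**Figure D3:**
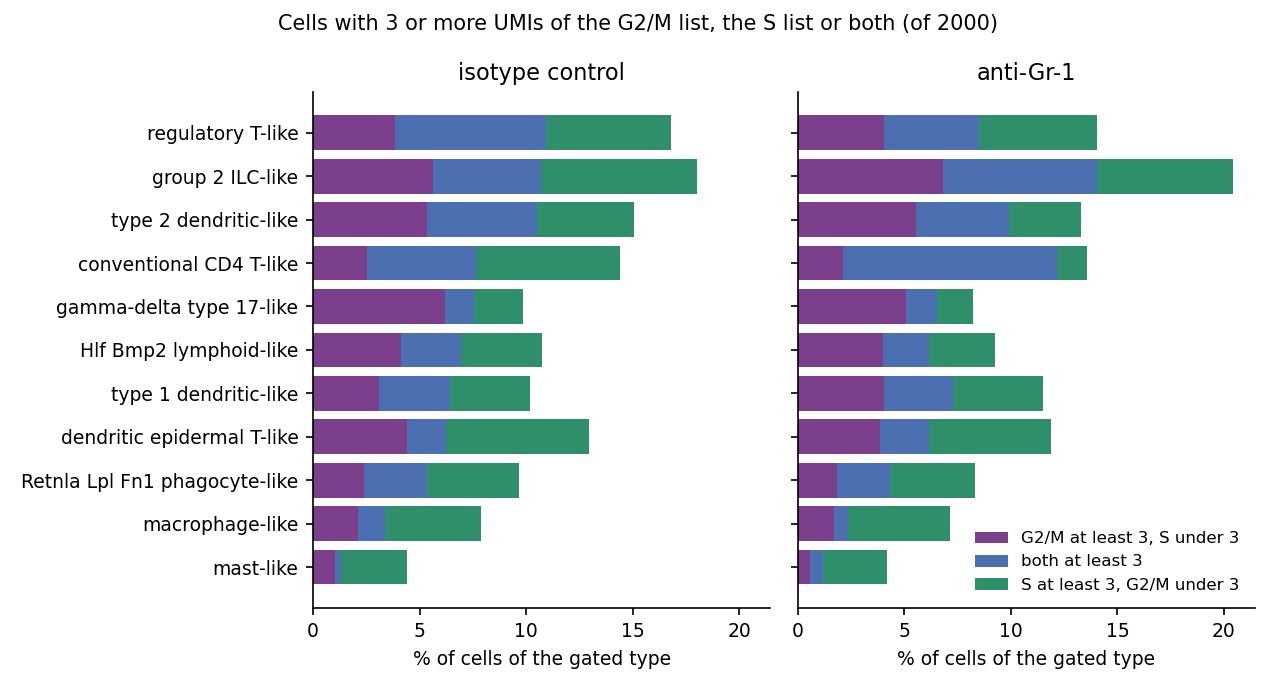
Share of cells (%) in each large cell type with at least 3 UMIs of the G2/M list only, of both lists, or of the S list only, out of 2000 UMIs per cell, 1 panel per library. S-only cells reach 7.32% in ILC2-like cells of the isotype control, and the part with both is small in gamma-delta type 17-like cells of both panels.

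The members themselves were compared between dividing cells and the other cells of the same types, with each G2/M gene left out of the call when its own value was taken. Nusap1, a spindle protein, had 320 CPM in dividing and 2.15 CPM in other cells of the isotype control, a ratio of 149, and 351 against 2.78 CPM after anti-Gr-1, a ratio of 126. Cenpf, a kinetochore protein, had ratios of 106 and 96.8, and the mitotic kinase Plk1 105 and 102. Cyclin A2 (Ccna2) had 89.1 and 171, and cyclin B1 (Ccnb1) 65.1 and 112. For all 4 of Nusap1, Cenpf, Ccna2 and Plk1 over 90% of the gated UMIs were in the few dividing cells, for example 94% and 95% for Nusap1. The kinase of the B cyclins, Cdk1, had ratios of 42.9 and 39.2.

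The members most used as markers were less exclusive. Mki67, which encodes the proliferation antigen Ki-67 (chr7:135689784-135716361), had 1201 CPM in dividing and 47.1 CPM in other isotype control cells, a ratio of 25.5, and 1103 against 40.2 after anti-Gr-1, a ratio of 27.5. Top2a, the topoisomerase that untangles sister chromatids (chr11:98992943-99024189), had ratios of 35.3 and 40.4. A Mki67 UMI was found among 2000 in 58.3% and 62.7% of dividing cells and in 5.47% and 4.26% of the others. Among the others this was 9.66% and 7.79% in type 2 dendritic-like, 9.11% and 6.8% in regulatory T-like and 1.31% and 0.606% in mast-like cells, so the share with a UMI was not alike in all types. Aurora kinase B (Aurkb, 16.7 and 24) and Cdca8, its partner in the chromosomal passenger complex (20.7 and 24.1), were also low for the G2/M list, as was Aurora kinase A (Aurka, 20.4 and 27.9).

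Cenpa stood apart from the other 20. It encodes the histone variant that marks centromeres (chr5, ENSMUSG00000029177) and had 258 CPM in cells called dividing by the other genes and 90.9 CPM in the rest, a ratio of 2.83 in the isotype control. After anti-Gr-1 it had 287 against 83.7 CPM, a ratio of 3.43. Only 19.1% and 24.5% of its UMIs were in dividing cells, against 64.5% and 72.6% for Aurkb, the next lowest in both libraries. Cells outside the dividing class had a Cenpa UMI in 15.4% and 14% of cases. The level among these cells followed cell type: 239 and 173 CPM in gamma-delta type 17-like, 158 and 156 in dendritic epidermal T-like, 127 and 122 in Hlf Bmp2 lymphoid-like, 122 and 120 in regulatory T-like, 29.6 and 27.1 in type 1 dendritic-like, 18.7 and 5.27 in Langerhans-like and 15.7 and 19.6 CPM in mast-like cells. Gamma-delta type 17-like cells were thus highest of the large types in both libraries, and 32.8% and 24.6% of those not dividing had a Cenpa UMI among 2000.

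**Figure D4:**
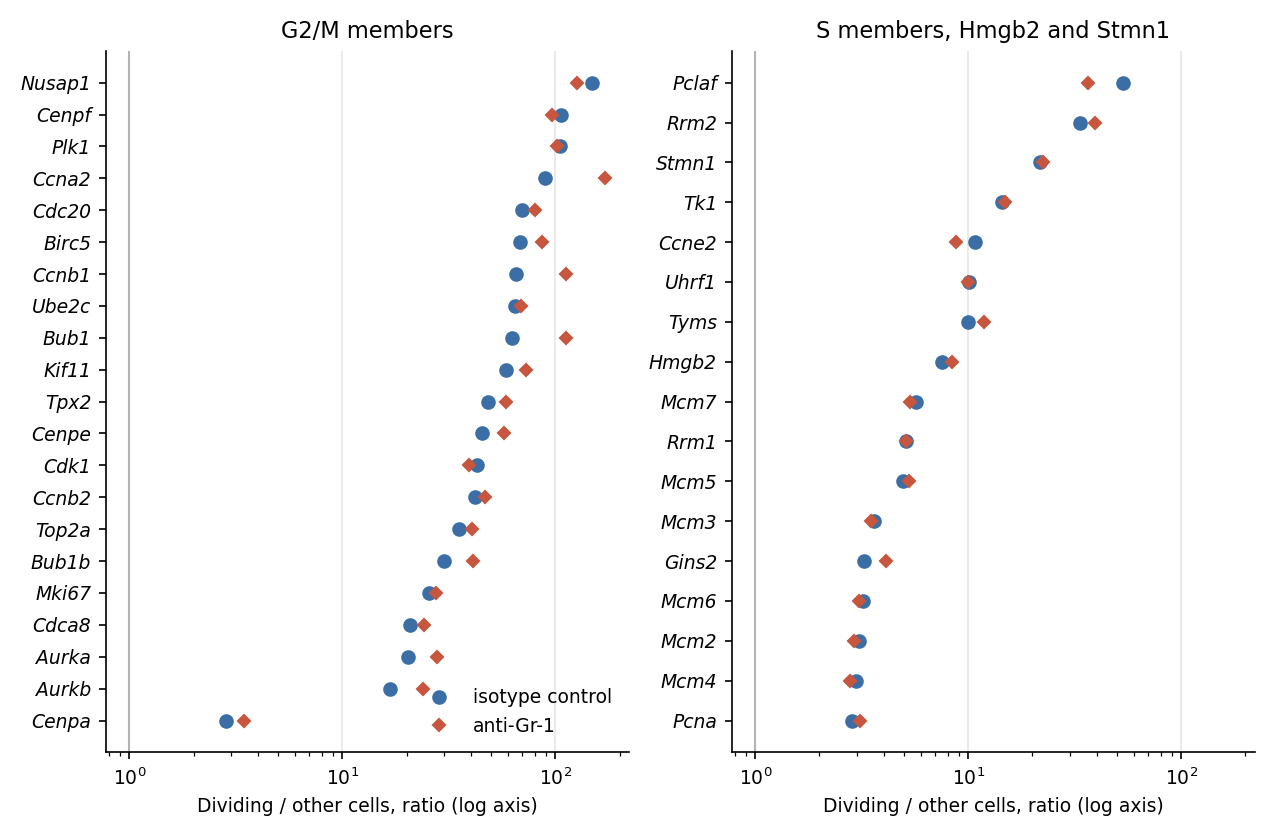
Ratio of the level in dividing cells to that in other cells of the same types (log axis) for the 21 G2/M members, the 15 S members, Hmgb2 and Stmn1. Circles are the isotype control and diamonds the anti-Gr-1 library. Nusap1 is at 149 and 126, Pclaf at 53 and 36.5, and Cenpa (2.83 and 3.43) and Pcna (2.83 and 3.11) lie near the bottom of their lists.

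The S members split in the same manner. Pclaf had 503 CPM in dividing and 9.49 CPM in other isotype control cells, a ratio of 53, and a ratio of 36.5 after anti-Gr-1. Rrm2 had ratios of 33.4 and 39.2, thymidine kinase 1 (Tk1) 14.4 and 14.9, the E-type cyclin Ccne2 10.8 and 8.74, the methylation reader Uhrf1 10.1 and 9.95, and thymidylate synthase (Tyms) 10 and 11.8. The helicase subunits ran from 2.96 (Mcm4) to 5.67 (Mcm7) in the isotype control and from 2.78 to 5.35 after anti-Gr-1. Pcna, the sliding clamp of DNA polymerase, had 336 against 118 CPM (ratio 2.83) and 314 against 101 CPM (3.11). A Pcna UMI was found in 20.5% and 17.9% of cells outside the dividing class, so most of its UMIs, like those of Cenpa, came from cells that the G2/M list did not call. Of the genes in neither list, Stmn1 had ratios of 21.7 and 22.4 and Hmgb2 7.56 and 8.39. Stmn1 was found among 2000 UMIs in 21% and 22.1% of mast-like cells outside the dividing class, against 2.54% and 2.52% of such dendritic epidermal T-like cells.

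Other genes of the pathway were read from lists kept apart from the members, counting a gene at a difference of 2-fold or more. Of all genes with at least 20 UMIs, 6.56% of 14645 were 2-fold higher in dividing cells of the isotype control and 5.58% 2-fold lower. After anti-Gr-1 6.8% of 14054 were higher and 5.96% lower, and the median log2 difference of all genes was -0.03 in both. All 28 other mitotic genes were 2-fold higher in both libraries, with median log2 differences of 5.16 and 5.23. Hmmr, a spindle assembly protein, had 138 against 0.788 CPM in the isotype control (log2 difference 7.45) and 8.03 after anti-Gr-1. Pbk, a mitotic kinase, had 6.70 and 6.66, Nuf2 of the kinetochore 6.58 and 6.38, and the kinesin Kif20a 6.22 and 6.18. Of the other replication genes 19 of 20 were 2-fold higher in each library (medians 2.37 and 2.38), led by Mcm10 (3.55 and 4.11), Cdc45 (3.49 and 3.73) and Cdc6 (3.21 and 3.94). Gins4 was the exception, at 0.96 and 0.94.

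Among the transcription factors that drive these programmes, 8 of 11 were 2-fold higher in the isotype control and 9 of 11 after anti-Gr-1. Foxm1, the mitotic forkhead factor, had 49.5 CPM in dividing and 1.36 CPM in other cells of the isotype control (log2 difference 5.19, and 5.33 after anti-Gr-1). The repressor E2f7 had 4.39 and 4.63 and Mybl2, which encodes B-MYB, 4.35 and 4.22. E2f4, which works in resting cells with the pocket proteins, had 0.33 and 0.41. The activator E2f3 was just inside 2-fold in the anti-Gr-1 library (1.20) and just outside it in the isotype control (0.91).

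Of 7 G1 cyclins and kinases 2 were 2-fold higher in dividing cells in each library, Ccne1 (log2 differences 3.24 and 2.63) and Cdk2 (1.44 and 1.52). Ccnd2, a D-type cyclin, was lower in dividing cells, at 272 against 457 CPM in the isotype control (-0.75 and, after anti-Gr-1, -0.83), short of the 2-fold mark. By cell type Ccnd2 had 1635 and 1411 CPM in dendritic epidermal T-like cells. It had 706 and 539 in Hlf Bmp2 lymphoid-like, 720 and 643 in regulatory T-like, 321 and 267 in mast-like, 31.5 and 16.1 in type 2 dendritic-like and 16.9 and 5.43 CPM in type 1 dendritic-like cells. Ccnd1 ran the other way among these, with 235 and 191 CPM in type 2 dendritic-like, 175 and 163 in type 1 dendritic-like and 94.4 and 83.4 in macrophage-like cells, against 6.16 and 2.14 in regulatory T-like and 2.82 and 2.13 in gamma-delta type 17-like cells. Dendritic epidermal T-like cells had both, with 85.3 and 83 CPM of Ccnd1. Cdk6, a partner kinase of the D cyclins, was highest in regulatory T-like (181 and 132 CPM) and mast-like cells (152 and 157 CPM), although the first had a dividing share over 7 times that of the second in each library.

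Of 10 inhibitors of cyclin-dependent kinases and pocket proteins, 4 in the isotype control and 5 after anti-Gr-1 were 2-fold higher in dividing cells, and 1 (Cdkn2b, at under 1 CPM) was 2-fold lower in the isotype control. Cdkn2c, an INK4 inhibitor, had 46.6 against 7.56 CPM in the isotype control (2.62 and 2.51) and the pocket protein gene Rbl1 61.8 against 15.8 CPM (1.97 and 1.85). Cdkn2d had 1.11 and 1.26. Cdkn2a had 3.64 and 4.85, at 2.38 and 3.87 CPM in dividing cells. Cdkn1a, which encodes p21, differed little by division (-0.01 and 0.15) but had 735 and 621 CPM in type 2 dendritic-like cells, 584 and 451 in mast-like cells and 107 and 88.6 in dendritic epidermal T-like cells. Type 2 dendritic-like cells thus had both the highest Cdkn1a of the 11 large types and one of the highest dividing shares. Of 7 genes linked to quiescence, such as Btg1 and Foxo3, none passed 2-fold in either direction. Their median log2 difference was -0.46 in the isotype control and -0.55 after anti-Gr-1, and Btg1 had 1090 against 1662 CPM (-0.61 and -0.62).

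The 38 members were then set between the libraries within each large cell type, counting a member when its level differed at least 1.5-fold and it had at least 20 UMIs over both. The share of all measured genes past that mark is the background. It ran from 9.42% to 25.6% between the types. In type 2 dendritic-like cells 1 of 38 members was past 1.5-fold, against 9.42% of all genes. That member was Ube2c, a ubiquitin-conjugating enzyme of mitotic exit, with 48.5 CPM in the isotype control and 79.7 after anti-Gr-1 (ratio 1.64, 1.51 to 1.79). In Hlf Bmp2 lymphoid-like cells it was 2 of 38, against 14.8%, Kif11 (35.5 and 23.1 CPM) and Rrm1 (50.6 and 33.2 CPM), both lower. These shares of members, 2.63% and 5.26%, were below the background.

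Dendritic epidermal T-like cells had 6 of 38 members past 1.5-fold (15.8%), against 11.5% of all genes. Cenpf (60.7 and 40.4 CPM, ratio 0.666, 0.586 to 0.756), Cenpe, Kif11 and Bub1 were lower and Tyms (11.9 and 21.2 CPM, ratio 1.78, 1.43 to 2.24) and Gins2 higher after anti-Gr-1. In type 1 dendritic-like cells 5 of 38 members (13.2%) were past it, against 12%. Ccnb1 (10.4 and 4.86 CPM), Ccnb2, Ube2c and Cenpf were lower and Gins2 (9.87 and 15 CPM) higher. In phagocytes with Retnla, Lpl and Fn1 it was 7 of 38 (18.4%), against 10.7%, with Rrm2 and Ccne2 higher and Aurka, Plk1, Tpx2, Ube2c and Cdk1 lower. In mast-like cells only 21 members were measured and 3 passed (14.3%), against 13.3%, each on fewer than 40 UMIs.

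In gamma-delta type 17-like cells 8 of 38 members (21.1%) were past 1.5-fold, against 17.2% of all genes. Higher were Ccnb2 (7.7 and 15.3 CPM, ratio 1.98, 1.34 to 2.97), Tyms (6.95 and 13.5 CPM), Stmn1 (68.6 and 120 CPM, ratio 1.75, 1.53 to 2), Cdk1, Cenpf and Ccna2, and lower were Aurka and Mcm3. Cenpa went the other way short of the mark, with 242 and 182 CPM (ratio 0.752, 0.691 to 0.819). In regulatory T-like cells 7 of 38 (18.4%) were past it, against 20.1%, and all 7 were lower after anti-Gr-1. Mki67 had 400 and 250 CPM there (ratio 0.623, 0.558 to 0.695), and Rrm1 69.5 and 43.4 CPM (ratio 0.624, 0.475 to 0.813). Regulatory T-like cells held 54 and 23 dividing cells, and the ratio of their dividing shares was 0.778 (0.456 to 1.29). Of all genes in these cells 16.7% were 1.5-fold lower and 3.34% higher, so lower values were also the rule in the background.

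ILC2-like cells had 13 of 38 members past 1.5-fold (34.2%), against 18.2% of all genes, and 11 of the 13 were higher after anti-Gr-1, where 4.63% of all genes were. Top2a had 287 CPM in the isotype control and 469 after anti-Gr-1 (ratio 1.64, 1.49 to 1.8), Nusap1 81.9 and 138 CPM, Pclaf 107 and 185 CPM and Stmn1 303 and 494 CPM (ratio 1.63, 1.49 to 1.78). Mki67 was short of the mark, at 317 and 410 CPM. Conventional CD4 T-like cells had 10 of 35 past it (28.6%), against 25.6%, and all 10 were higher, where 7.81% of all genes were. Pclaf had 92 and 203 CPM there (ratio 2.21, 1.7 to 2.9) and Rrm2 23 and 59.2 CPM (ratio 2.57, 1.53 to 4.56). The dividing cells behind these sums were 38 and 33 ILC2-like cells and 9 and 17 conventional CD4 T-like cells.

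Macrophage-like cells had 11 of 37 members past the mark (29.7%), against 13.9%. The 8 higher ones after anti-Gr-1 were all of the G2/M list, among them Ube2c (7.54 and 18.7 CPM, ratio 2.48, 1.65 to 3.74), Cdc20 (1.48 and 7.88 CPM) and Ccna2 (4.1 and 9.19 CPM). The 3 lower ones, Rrm2, Ccne2 and Pclaf (19.2 and 12.5 CPM), were all of the S list. Mki67 (51.5 and 49.2 CPM) and Top2a (29.8 and 30.9 CPM) were close to equal. After anti-Gr-1 the 7 dividing macrophage-like cells had a median of 11 G2/M UMIs, against 4 in the 27 of the isotype control. Over the 11 types together, 73 of 397 pairs of a member and a type were past 1.5-fold. The share of these pairs lay inside the range that the share of all genes had by type, 9.42% to 25.6%. Past 2-fold were 18 of 397, close to the share of 4.6% among all pairs of a measured gene and a type.

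**Figure D5:**
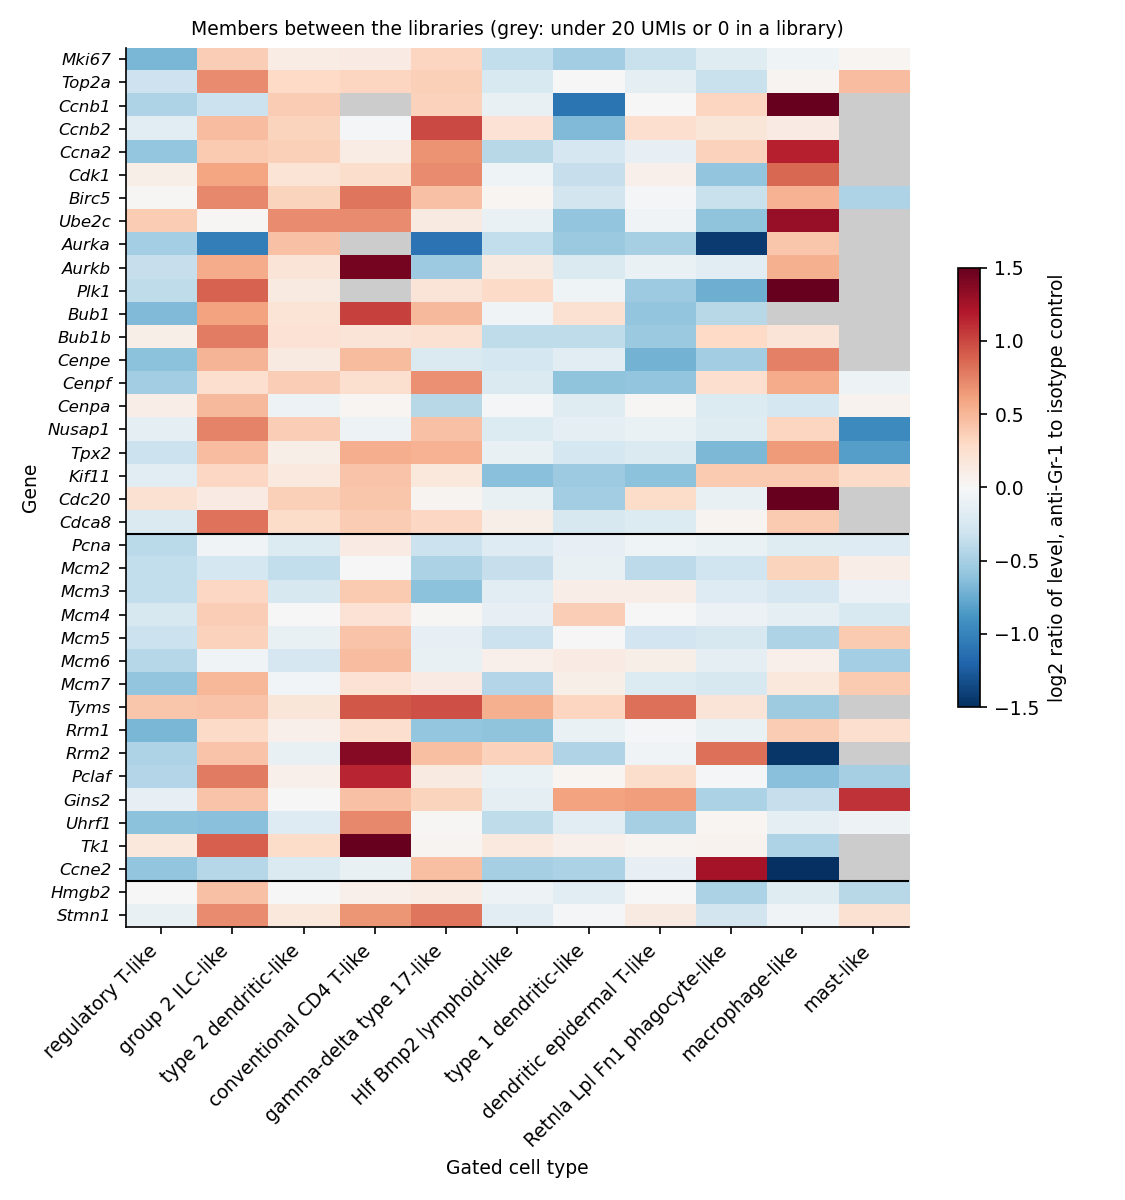
Log2 ratio of the level after anti-Gr-1 to that in the isotype control for each member (rows) in each of the 11 large cell types (columns). Lines divide the G2/M list, the S list, and Hmgb2 with Stmn1. Red is higher and blue lower after anti-Gr-1, and grey marks members with under 20 UMIs or with 0 in a library. The ILC2-like and conventional CD4 T-like columns are mostly red and the regulatory T-like column mostly blue, and the macrophage-like column is red for G2/M and blue for several S genes.

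Each pool held mice of both sexes, so cells with Xist UMIs and no Y-linked UMI and the reverse were also read apart. In female cells the dividing share was 7.49% (6.67 to 8.38) in the isotype control, 282 of 3763, and 6.16% (4.86 to 7.67) after anti-Gr-1, 74 of 1202, a ratio of 0.822 (0.627 to 1.06). In male cells it was 7.17% (6.4 to 8.01), 292 of 4071, and 7.18% (6.37 to 8.06), 264 of 3677. The intervals overlapped between the sexes in each library. In ILC2-like cells the female shares were 15 of 137 (10.9%) and 10 of 48 (20.8%), with a ratio of 1.9 (0.764 to 4.53). The male shares were 19 of 146 (13%) and 19 of 137 (13.9%), with a ratio of 1.07 (0.534 to 2.13).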

How the data were processed

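Live CD45+ skin cells of 2 pools of mice, isotype control and anti-Gr-1, gave 1 droplet library each. The deposited values are raw UMI counts per gene and barcode. The file headers name Cell Ranger 4.0.0, and the genome build is mm10 in the submitters' processing notes (mms10 in the labels). Chemistry was 3′ v2, per the labels' protocols. The members and gene lists were chosen with earlier results of these data known.

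Barcodes with at least 200 genes, 500 UMIs and under 10% mitochondrial UMIs were kept (19542 and 8047). Doublets were scored with scrublet in scanpy 1.11.5. Its automatic threshold called 0 barcodes in the isotype control and 448 after anti-Gr-1, so in both libraries the highest scores were removed at a rate of 0.8% per 1000 barcodes. Cells were gated by marker UMIs per 10000 and, for many types, also by minimum raw marker counts, with cuts set after the data were seen. Raw counts rise with depth, and the part of depth in the gates was not tested. Singlets with at least 2000 UMIs were thinned to 2000. A G2/M member's own UMIs were left out of the call for its own ratio of dividing to other cells, which was standardised over cell types. A share of 0 is given with the limit that 3 counts allow. This limit is lower than the upper end of the Clopper-Pearson interval, for example 4.55% against 5.44% for Langerhans-like cells after anti-Gr-1. Genes had at least 20 UMIs. The rule for named genes was all 38 members, and up to 4 genes per pathway list by largest level or difference. Further pathway genes (Ccnd1, Cdk6, E2f3, E2f4, Gins4, Cdkn2b and Foxo3) were named after their values were seen. Gene positions came from GENCODE M21. Functions were tested on simulated data. Python 3.11.15, numpy 2.4.6, scipy 1.17.1, pandas 2.3.3 and matplotlib 3.10.9 were used. The antibody-derived tags that the labels' protocols mention were not analysed here.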

Additional observations from a re-analysis of the deposited data

How the results depend on the processing

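With 1 library per treatment there is no test to lose, and values are compared with their own 95% intervals. No paired analysis was possible because each treatment has 1 pooled library. The dividing share depends on the call. It was 4.23% (isotype control) and 4.17% (anti-Gr-1) with cells thinned to 1000 UMIs, 9.84% and 9% at 3000, 22.5% and 26.2% without thinning (chosen after seeing the data), 21% and 25.5% without thinning when cells under 2000 UMIs were also kept, 12.3% and 11.2% with a threshold of 2 UMIs, 4.16% and 4.47% with 5, 12.2% and 11.5% with 1 UMI of Mki67 or Top2a, and 4.98% and 5.05% without Cenpa. It was 7.59% in the isotype control by the S list, 8.08% over cells gated or not and 7.49% in female cells. The ratio of the shares left its interval without thinning (1.17, or 1.22 with the shallower cells) and in female cells (0.822). UMIs of the S list per G2/M UMI were 0.328 and 0.298 at 1000 UMIs, 0.419 and 0.387 at 3000, 0.503 and 0.488 without thinning (0.502 and 0.488 with the shallower cells), 0.425 and 0.399 with a threshold of 2, 0.338 and 0.322 with 5, 0.454 and 0.426 by Mki67 and Top2a, 0.828 and 0.818 by the S list and 0.432 and 0.337 in female cells. They were 0.372 over cells gated or not and 0.369 in male cells in the isotype control, and 0.354 after anti-Gr-1 under 5% mitochondrial UMIs. A fold of 2 gave 18 pairs of a member and a type past it in place of 73, with 4.6% of all pairs past 2-fold. The cause of these moves was not tested. Of the 22 shares by cell type and library, 0 left their interval without doublet removal, with cells of at least 4000 UMIs (chosen after seeing the data) or under 5% mitochondrial UMIs, 6 without Cenpa, 13 with a threshold of 5, 20 without thinning, and 21 without thinning when cells under 2000 UMIs were also kept. With 1 UMI of Mki67 or Top2a 21 left it, with a threshold of 2 it was 17, and by the S list 10. At 1000 UMIs 13 left it and at 3000 UMIs 10. In female cells it was 7, in male cells 1, and over cells gated or not 0.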
